A study of Mus musculus with 8 samples.

Results

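The genes described here are the 10 replication licensing genes *Cdc6*, *Cdt1*, *Gmnn*, *Mcm2*, *Mcm3*, *Mcm4*, *Mcm5*, *Mcm6*, *Mcm7* and *Mcm10*. They were chosen by name from the 11364 genes of both deposited gene tables, and the bound sites were chosen by having one of these genes as the closest transcription start site, which gave 2 of 5551 sites. K1 cells are a mouse erythroid line without KLF1, the zinc finger activator of red cell genes. K1-ER is the same line with a transgene for normal KLF1 joined to part of the estrogen receptor, and K1-E339K-ER has this fusion with the glutamate-to-lysine change that stands for the human mutation of congenital dyserythropoietic anemia type IV. The labels give 3 K1 libraries and 3 K1-E339K-ER libraries of RNA labelled for 30 minutes with 500 µM 4-thiouridine (4sU), so that newly made transcripts were read. The study's Methods describe independent clonal lines, 3 in number, for both K1 and K1-E339K-ER. They also give a higher 4sU concentration and a longer labelling time, and which was used could not be settled. All of these RNA libraries received 200 nM 4-hydroxytamoxifen (4-OHT), which moves the fusion into the nucleus, except 1 K1 library labelled as ethanol. For binding there were 1 ChIP and 1 input library of K1-E339K-ER cells after 3 h of 4-OHT. The K1-ER libraries enter only through the authors' deposited tables, and no table holds a value for a library, so each value below is a fitted comparison of groups. Each compares cell lines, not 4-OHT with ethanol within a line. Other differences between the lines or experiments therefore cannot be told apart from the effect of the KLF1 fusion. For transcription, wild type and mutant below name the lines K1-ER and K1-E339K-ER.

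Licensing is the step in G1 phase that prepares an origin of replication for a single round of firing. The origin recognition complex recruits CDC6, and CDC6 and CDT1 together load the ring of MCM2 to MCM7, the replicative helicase, around DNA as an inactive double ring. MCM10 binds the ring later, when the helicase is activated. Geminin, the product of *Gmnn*, binds and blocks CDT1 from S phase to mitosis, so that origins are not licensed again. Many of these genes are known targets of the E2F factors, which raise their transcription at the passage from G1 into S phase, and erythroid progenitors pass through several fast divisions before they stop cycling.

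Sequence is shown first, with the letters that KLF1 reads at the listed sites and the E2F letters at the starts of the genes. The letters that KLF1 reads were split by the fifth base, which the altered residue faces, into pyrimidine forms (NGGGCGGGG, NGGGCGTGG, NGGGTGGGG and NGGGTGTGG) and purine forms (NGGGAGGGG, NGGGAGTGG, NGGGGGGGG and NGGGGGTGG). Both strands were searched in the 101 bases around the midpoint of each site in the NCBIM37 (mm9) sequence. A purine form was present in 45.5% of the 3498 sites that favoured the mutant and in 16.3% of the 1675 that favoured wild type, and a pyrimidine form in 23.0% and 60.0%. The windows below are those of the site just upstream of *Cdt1* (chr8:125091719-125091819), the site just beyond the end of *Cdt1* (chr8:125097559-125097659) and the site at the start of *Gmnn* (chr13:24853795-24853895), each on the plus strand. Capitals mark every match to either set.
Cdt1 upstream: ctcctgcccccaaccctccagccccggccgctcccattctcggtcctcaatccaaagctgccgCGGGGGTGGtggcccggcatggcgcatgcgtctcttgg
Cdt1 downstream: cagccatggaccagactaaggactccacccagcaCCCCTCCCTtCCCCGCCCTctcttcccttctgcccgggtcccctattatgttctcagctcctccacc
Gmnn upstream: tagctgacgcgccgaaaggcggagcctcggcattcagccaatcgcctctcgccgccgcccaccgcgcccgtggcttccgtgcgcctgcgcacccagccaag

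The upstream *Cdt1* window held 1 purine form and no pyrimidine form. The downstream *Cdt1* window held 1 of each, on the strand opposite to the printed letters. The *Gmnn* window held neither, and the whole *Gmnn* site held neither.

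The E2F letters TTTCCCGC, TTTCGCGC, TTTGCCGC and TTTGGCGC were searched on both strands from 250 bases before to 50 bases after each start of a protein-coding transcript in GENCODE M1, and they overlap neither KLF1 set. Of 22232 genes, 3.86% held a match at one or more of their starts, and 8 of the 10 licensing genes did, all but *Mcm2* and *Mcm10*. With the most upstream start of each gene alone, the share was 2.73% of 22238 genes and the licensing genes with a match were 7, without *Mcm7*, most of whose transcripts begin further downstream. The purine KLF1 forms were found at starts of 4 of the 10 genes, against 30.4% of all genes, and the pyrimidine forms at starts of 5, against 42.3%. One stretch of 30 bases is printed for each of the 8 genes, on the strand of the gene with the E2F letters in capitals. It holds the most downstream match, taken at the start with the most transcripts among the starts with a match. The printed matches are alike by construction, since only these exact letters were searched. The stretches lie at chr11:98769135-98769164 (*Cdc6*), chr8:125091935-125091964 (*Cdt1*), chr13:24854013-24854042 (*Gmnn*), chr1:20810337-20810366 (*Mcm3*), chr16:15637553-15637582 (*Mcm4*), chr8:77633447-77633476 (*Mcm5*), chr1:130256311-130256340 (*Mcm6*) and chr5:138613077-138613106 (*Mcm7*).
Cdc6: gaaggctgaagtagagcggcTTTGGCGCga
Cdt1: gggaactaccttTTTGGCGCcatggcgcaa
Gmnn: tctcgtgTTTGCCGCtagtgagagtctctt
Mcm3: acttgggaagtTTTGGCGCcaaggcggtgt
Mcm4: agctacacgccTTTGCCGCtgtgattggcc
Mcm5: gcggaggctggttTTTCCCGCgaaagtcgg
Mcm6: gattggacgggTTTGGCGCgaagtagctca
Mcm7: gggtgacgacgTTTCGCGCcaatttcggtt

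The same letters, TTTGGCGC, were printed for *Cdc6*, *Cdt1*, *Mcm3* and *Mcm6*. The printed matches lay within 50 bases of the start used in *Cdc6* (44 bases after it), *Cdt1* (36 after), *Mcm3* (8 after), *Mcm5* (37 after) and *Mcm7* (48 before). They lay further upstream in *Mcm4* (74 before), *Mcm6* (101 before) and *Gmnn* (239 before). The printed stretches of *Cdt1* and *Gmnn* overlap the edge of the listed site at each start, with the capitals just outside it. A match is a run of letters in the reference sequence and no measure of binding, and E2F binding was not measured.

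All 10 genes were well expressed as new transcripts. On the scale of mean log2 CPM, the counts scaled to library size, per kilobase of the gene length listed with them, their level ran from 2.00 for *Gmnn*, at percentile 70.7 of all listed genes, to 6.46 for *Cdt1*, at percentile 99.0. *Mcm2* (5.10), *Mcm7* (5.06) and *Mcm5* (4.36) followed *Cdt1*, and *Cdc6* (3.16), *Mcm4* (2.98), *Mcm10* (2.91), *Mcm3* (2.77) and *Mcm6* (2.39) lay between these and *Gmnn*. The subunits of the one MCM ring therefore spanned 2.39 to 5.10 on this log2 scale. These levels are means over the libraries of the fit, and the listed lengths are nearly the whole genomic span (15307 bp for *Mcm2*, 5116 bp for *Cdt1*), so introns are counted in them, and no spread over libraries can be given for their order. The row taken as *Mcm2* bears that symbol only in the K1-ER table and reads Mchm2 in the other, with Entrez identifier 107572, which the RefSeq table does not hold. Its length differs by 1 bp from the 15306 bp of *Mcm2* in GENCODE M1. The other 9 genes had the same symbol in both tables and in RefSeq.

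Did transcription of the licensing genes differ from K1 in the lines with KLF1 or the E339K protein? The transgene was seen in both lines: *Klf1* was listed 5.12 ± 0.62 (SE) higher on the log2 scale in K1-E339K-ER than in K1 (adjusted p = 0.000604) and 6.01 ± 0.64 higher in K1-ER (adjusted p = 4.56e-05, limma treat). All 13 erythroid markers were listed, from 3.79 to 10.80 log2 CPM. These means pool the lines, and some of the markers, such as *Klf1*, *Nfe2* and *Hbb-bh1*, stood far higher in the lines with a transgene. Of 5 myeloid markers 2 were listed (at most 1.84 log2 CPM) and of 4 megakaryocyte markers 2 (at most 5.30). *Spi1*, the myeloid factor PU.1, was 5.52 ± 0.78 higher in K1-ER than in K1 (adjusted p = 0.000629) at a mean of 0.39 log2 CPM, and its part in the values below was not tested.

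With the mutant the licensing genes lay close to their K1 level. Their log2 fold changes in K1-E339K-ER against K1 ran from -0.14 for *Mcm6* to 0.21 for *Mcm2*, with standard errors of 0.17 to 0.27 and a median of 0.06, against a median of -0.03 over all genes. None of the 10 passed the test used by the authors, limma's treat, which asks whether a change exceeds a set minimum (adjusted p under 0.05). The values of both tables give a minimum log2 fold change of 1, a 2-fold change, whereas the study's text words its minimum as a larger log fold change. None of the 10 had an unadjusted p under 0.05. Over all genes 2.31% passed the test with this minimum. When the test was rebuilt with no minimum change, again 0 of 10 passed and 0 had an unadjusted p under 0.05, against 7.48% of all genes called higher and 1.42% called lower, and the smallest adjusted p was 0.530 (*Mcm2*). Every 95% interval of the 10 lay between -1 and 1, and the widest bounds were -0.60 (*Mcm6*) and 0.70 (*Cdt1*), so a 2-fold change lay outside the interval of each gene.

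With wild type KLF1 the same genes spread over a wider range, and most lay above K1. The log2 fold changes in K1-ER against K1 ran from -0.28 for *Mcm4* to 1.61 for *Mcm7*, with standard errors of 0.19 to 0.29 and a median of 0.49, against -0.05 over all genes. Above 0 lay 8 of 10, against 47.9% of all genes. None passed the treat test with a minimum of 1, which 6.02% of all genes passed, and *Mcm7* alone had an unadjusted p under 0.05 (0.0235, adjusted p = 0.254). With no minimum, 4 of 10 were higher (*Mcm7*, *Cdc6*, *Cdt1* and *Mcm3*) and none lower, against 17.1% of all genes called higher and 12.8% lower. Before adjustment, 6 of 10 had a p under 0.05 in treat with no minimum, and the share of all genes at that level is not given here.

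The loaders came close together. *Cdc6* was 2.09-fold higher in K1-ER than in K1, a log2 fold change of 1.06 ± 0.25 (SE). Its 95% interval was 0.54 to 1.59, with an adjusted p of 0.00424 in the treat test with no minimum. *Cdt1* was 2.07-fold higher in the same comparison, by 1.05 ± 0.29 (0.42 to 1.67, adjusted p = 0.0138 in the same test). In the mutant the corresponding values were 0.16 ± 0.23 (-0.32 to 0.64) for *Cdc6* and 0.13 ± 0.27 (-0.45 to 0.70) for *Cdt1*. The 2 intervals of *Cdt1* overlap between 0.42 and 0.70, and those of *Cdc6* between 0.54 and 0.64.

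Geminin, the inhibitor of CDT1, stood at 0.57 ± 0.23 with wild type KLF1 (0.08 to 1.06), which did not pass the test with no minimum (adjusted p = 0.0747), and at -0.08 ± 0.21 with the mutant (-0.53 to 0.37). Its wild type value was lower than those of both loaders, and the intervals of all 3 overlap.

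The subunits of the helicase ring did not move as a block. In K1-ER, *Mcm7* was 3.05-fold higher than in K1 (1.61 ± 0.28, 95% interval 1.01 to 2.21, adjusted p = 0.000551 in treat with no minimum). *Mcm3* was 1.58-fold higher (0.66 ± 0.22, 0.19 to 1.13, adjusted p = 0.0334). *Mcm2* stood at 0.42 ± 0.19 (adjusted p = 0.114), *Mcm5* at 0.40 ± 0.21 (0.168), *Mcm6* at -0.02 ± 0.25 (0.961) and *Mcm4* at -0.28 ± 0.21 (0.322), and none of these 4 passed. The interval of *Mcm7* lay wholly above those of *Mcm2*, *Mcm4*, *Mcm5*, *Mcm6* and *Mcm10*. *Mcm10* itself stood at 0.21 ± 0.20 (adjusted p = 0.451). With the mutant the 6 ring genes lay between -0.14 and 0.21, and *Mcm7* was at 0.08 ± 0.27 (-0.49 to 0.65).

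**Figure D1:**
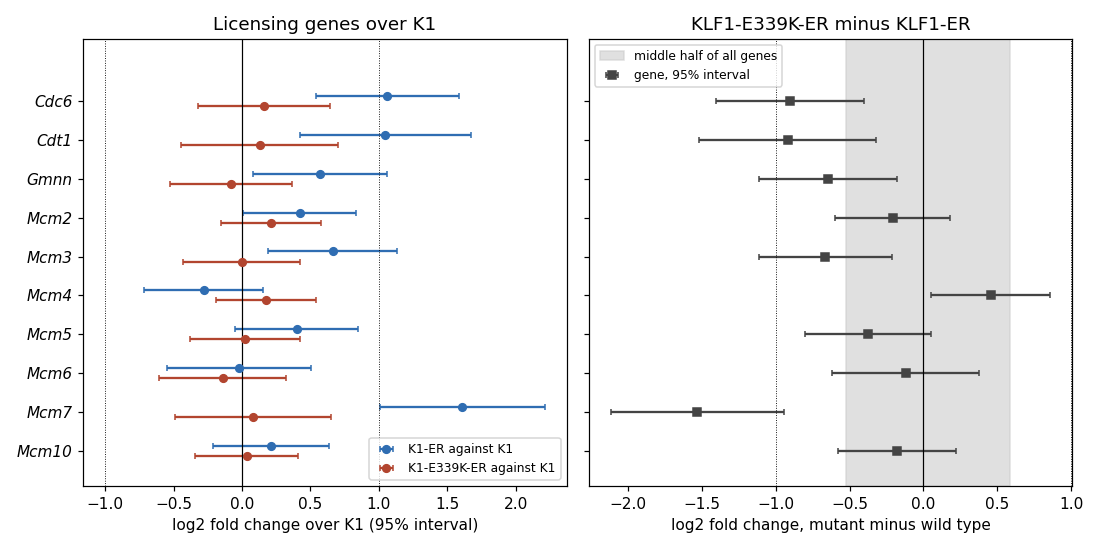
Log2 fold change over K1 of each licensing gene in K1-ER (blue) and K1-E339K-ER (red), left, and the mutant value minus the wild type value (squares), right, with 95% intervals rebuilt from the deposited values and dotted lines at -1 and 1. Red points stay between -0.14 and 0.21, blue points reach 1.61 at Mcm7, and 9 of the 10 differences lie below 0, with the middle 50% of all genes (grey) between -0.52 and 0.59.

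Because both comparisons share the K1 libraries, the difference between mutant and wild type was tested on its own, assuming that the K1 libraries carry 0.5 of each variance. It had a median of -0.51 over the 10 genes, against 0.01 over all genes. Of the 10 values 9 lay below 0 and 1 above, against 50.7% of all genes above 0. Because the mutant values lay close to K1, these differences largely mirror the wild type values. With a minimum of 1 none of the 10 passed, against 3.98% of all genes, and 1 of them (*Mcm7*) had an unadjusted p under 0.05. With no minimum, 5 of 10 were lower with the mutant and none higher, against 16.4% of all genes lower and 17.6% higher. These were *Mcm7* at -1.53 ± 0.28 (adjusted p = 0.000726, a 2.89-fold lower value), *Cdt1* at -0.92 ± 0.28 (0.0204), *Cdc6* at -0.90 ± 0.24 (0.00871), *Mcm3* at -0.67 ± 0.21 (0.0244) and *Gmnn* at -0.65 ± 0.22 (0.0334). *Mcm4* was the gene above 0, at 0.46 ± 0.19 (adjusted p = 0.0755). The count depends on how much of the variance the K1 libraries carry: at 0.25 in place of 0.5, *Mcm7* (adjusted p = 0.00545) and *Cdc6* (0.0375) remained past the threshold, and at none, *Mcm7* alone (0.0191).

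Genes that share DNA with a member can share its reads, and the strand used in counting is not given in the sources used here. In GENCODE M1 *Mcm7* overlaps *Ap4m1*, a subunit of an adaptor complex read in the opposite direction, by 421 bp. The listed length of *Mcm7* is 7274 bp, shorter than its 7840 bp there. Whether the counted *Mcm7* shares bases with *Ap4m1* is therefore not known. *Ap4m1* stood at 0.99 ± 0.28 with wild type KLF1 (adjusted p = 0.0138 in treat with no minimum), above 0 like *Mcm7*. With the mutant *Ap4m1* stood at 0.05 ± 0.26, and neither gene could be told from 0. *Mcm7* also hosts a cluster of microRNAs, of which the *Mir25* row stood at 2.13 ± 0.54 with wild type KLF1 (adjusted p = 0.00804), *Mir106b* at 1.26 ± 0.67 (0.169) and *Mir93* at 1.06 ± 0.69 (0.263). With the mutant they stood at 0.62 ± 0.56, 0.89 ± 0.62 and 0.41 ± 0.65. The means of these rows were low, at 1.35 (*Mir25*), 0.43 (*Mir106b*) and 0.59 (*Mir93*) log2 CPM, against 7.92 for *Mcm7*. Which reads of these rows came from the *Mcm7* transcript was not tested. *Gm20388*, a long transcript annotated on the same strand, spans *Cdt1*. *Mcm4* starts 466 bp from *Prkdc*, the catalytic subunit of the DNA-dependent protein kinase, which runs the other way and stood at -0.21 ± 0.21 with wild type KLF1 and 0.16 ± 0.18 with the mutant, next to -0.28 and 0.18 for *Mcm4*.

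Binding was listed at 2 of the 10 genes, and the 2 sites favoured opposite proteins. Values in the site table are log2 concentrations of normalised reads, with Fold as wild type minus mutant. Of all 5551 sites 63.0% favoured KLF1-E339K-ER and 30.2% favoured KLF1-ER (FDR under 0.05), so favouring one of the proteins is the rule in this table. The mutant is represented by 1 ChIP library, so these FDR values, and those of the sites below, hold no spread between mutant replicates and describe that library.

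The upstream *Cdt1* site spanned chr8:125091602-125091937, reached from upstream into the first exon, and had its midpoint 145.5 bp before the start. Its concentration was 6.20 for the mutant, higher than in 87.1% of all sites, and 2.72 for wild type, higher than in 49.1%. Fold was -3.49, an 11.2-fold higher value for the mutant (FDR = 7.08e-12). This is the window with the purine form CGGGGGTGG.

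A further site lay at chr8:125097455-125097764, beginning 427 bp beyond the end of *Cdt1* and 5694.5 bp from its start, and is listed under *Aprt*, the adenine phosphoribosyltransferase gene that ends 1508 bp from *Cdt1* and is read towards it. It favoured wild type with 6.45 against 2.92 for the mutant (Fold 3.53, 11.6-fold, FDR = 5.09e-17). *Cdt1* thus had a mutant-favoured site at its start and a wild type-favoured site at its end, with log2 fold changes of transcription of 0.13 in the mutant and 1.05 in wild type. *Aprt* stood at -0.01 ± 0.27 in the mutant and 0.88 ± 0.30 in wild type (adjusted p = 0.0349 with no minimum).

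The *Gmnn* site spanned chr13:24853664-24854026, overlapped the first exon and had its midpoint 53 bp before the start. Its concentration was 4.89 for wild type and -0.38 for the mutant, which is the lowest value listed for the mutant and is shared by 147 sites. Fold was 5.27 (FDR = 1.42e-06), and since the mutant stood at the floor of the table its linear size cannot be read as a ratio of binding. Transcription of *Gmnn*, with 0.57 in wild type and -0.08 in the mutant, passed no test against K1 after adjustment, and the difference of -0.65 passed the test with no minimum.

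*Cdc6* had no listed site of its own. The nearest, chr11:98786647-98787205, began 1393 bp beyond the end of the gene and 17.8 kb from its start, and is listed under *Rara*, the retinoic acid receptor alpha gene. It favoured the mutant with 6.31 against 2.08 (Fold -4.23, FDR = 4.76e-13). *Rara* was 2.58 ± 0.27 higher on the log2 scale in K1-E339K-ER than in K1 and 1.35 ± 0.33 higher in K1-ER, while *Cdc6* stood at 0.16 and 1.06.

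**Figure D2:**
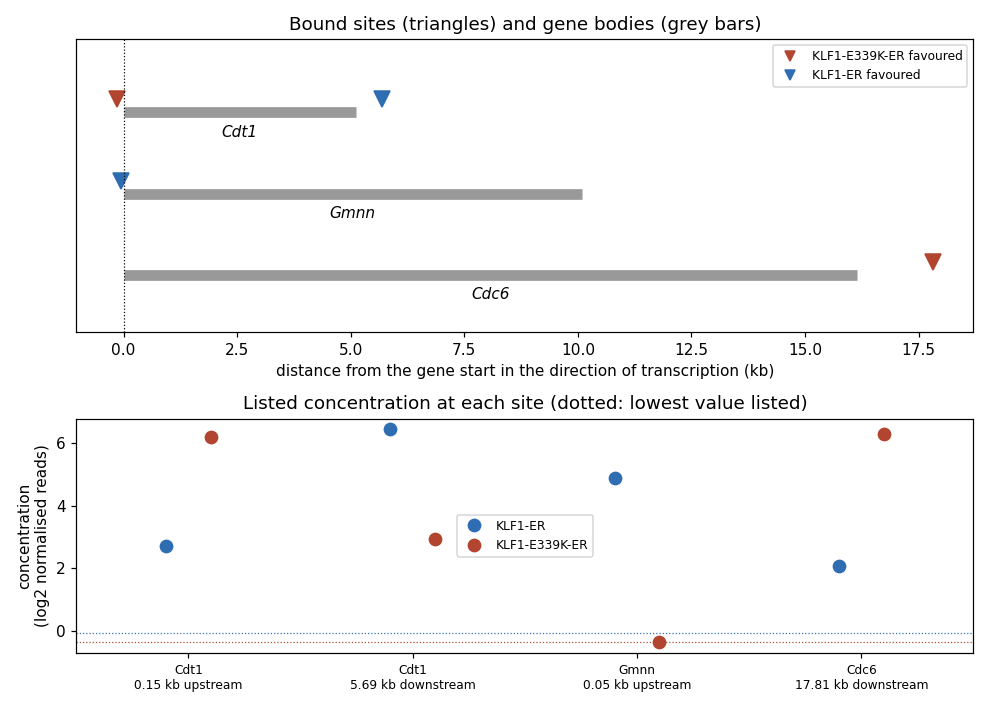
Top, position of the listed sites relative to the start of Cdt1, Gmnn and Cdc6, with the gene body as a grey bar and the site midpoint as a triangle, red where the mutant and blue where wild type was favoured. Bottom, the listed log2 concentration of each site for KLF1-ER (blue) and KLF1-E339K-ER (red), with the lowest values of the table, -0.09 and -0.38, dotted: the Gmnn site stands at the floor for the mutant.

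The other genes had no site near. The distance from the start to the nearest midpoint was 55.5 kb for *Mcm7*, 115 kb for *Mcm6*, 139 kb for *Mcm2*, 449 kb for *Mcm10*, 1202 kb for *Mcm4*, 1522 kb for *Mcm5* and 2580 kb for *Mcm3*. The 10 genes had a median of 127 kb, against 53.6 kb for 9787 other listed genes with a position in GENCODE M1, and 2 of 10 had a site within 10 kb, against 26.8% of the others. *Mcm7*, the gene with the highest wild type value of the 10, had its nearest wild type-favoured site 386 kb away, and *Mcm3* 3118 kb. A gene with no listed site within reach was not shown to be unbound, since the table holds merged peaks alone.

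**Figure D3:**
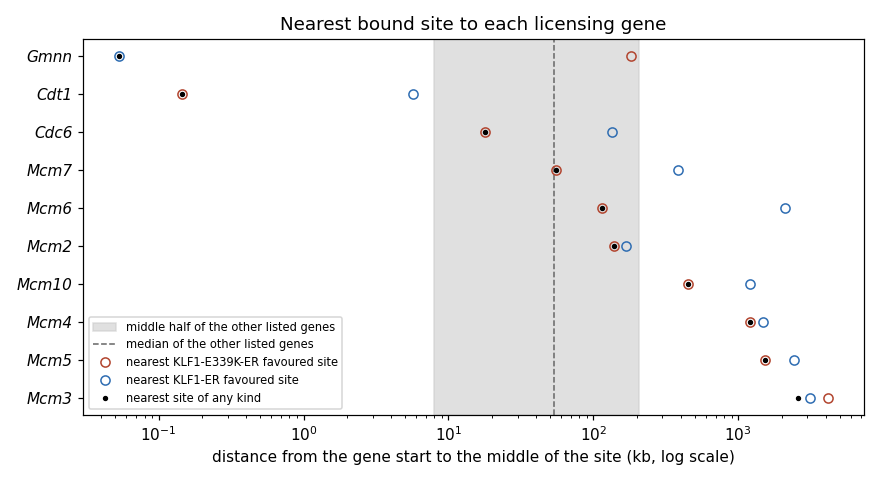
Distance in kb, on a log scale, from the start of each licensing gene to the midpoint of its nearest site of any kind (black), favoured by the mutant (red) and favoured by wild type (blue), with the median (dashed) and the middle 50% (grey, 7.96 to 205 kb) of 9787 other genes. Gmnn and Cdt1 lie left of the grey band, and Mcm10, Mcm4, Mcm5 and Mcm3 right of it.

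The genes that act beside the licensing genes were read in 7 lists with 79 listed genes. Without a minimum change 2 of them were higher and 1 lower in the mutant, and 11 were higher and 12 lower in K1-ER. All genes had 7.48% higher and 1.42% lower in the mutant and 17.1% higher and 12.8% lower in K1-ER, so the K1-ER counts of the 79 genes lay near those of all genes. With a minimum of 1, 1 of the 79 passed in the mutant and 2 in K1-ER, against 2.31% and 6.02% of all genes. The genes named here are those past the treat test with a minimum of 1 in a comparison or in the difference, or, for a list with none, those with the highest and lowest log2 fold change in K1-ER.

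The origin recognition complex, which marks the origins, had a median of -0.65 in K1-ER over 6 genes, on the other side of 0 from the median of the licensing genes. With no minimum, 3 of the 6 were lower in K1-ER (*Orc4*, *Orc5* and *Orc3*) and none higher, against 12.8% and 17.1% of all genes, and 0 of 6 passed in the mutant, against 1.42% lower and 7.48% higher. *Orc4* stood at -1.35 ± 0.23 in K1-ER and 0.49 ± 0.17 in the mutant, and the difference of 1.84 ± 0.20 passed the treat test with a minimum of 1 (adjusted p = 0.0152).

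Among 13 genes for the turnover of CDT1, CDC6 and geminin, 3 were higher and 3 lower in K1-ER with no minimum, against 17.1% and 12.8% of all genes. *Cdc20*, an activator of the anaphase-promoting complex, which marks geminin for degradation, stood at 1.91 ± 0.30 in K1-ER (adjusted p = 0.0674 in treat with a minimum of 1) and -0.30 ± 0.30 in the mutant, with a difference of -2.21 ± 0.30 that passed (adjusted p = 0.0190). *Skp2*, the ligase subunit that recognises phosphorylated CDT1, was lower than in K1 in both lines. It stood at -2.10 ± 0.24 in the mutant (adjusted p = 0.0120, treat with a minimum of 1) and -2.40 ± 0.30 in K1-ER (0.00356). The 3 other listed genes that start within 1 Mb of *Skp2* on chromosome 15 also lay below 0 in both lines, with medians of -1.86 and -2.07, and the part of that region in the *Skp2* value was not tested.

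Of 6 genes of nucleotide supply, *Tk1*, thymidine kinase, was higher in K1-ER than in K1 by 2.88 ± 0.28 (adjusted p = 0.000158, treat with a minimum of 1). It stood at -0.20 ± 0.29 in the mutant. Its difference of -3.08 ± 0.28 passed with a minimum of 1 (adjusted p = 0.000201). With no minimum in treat, 2 of the 6 were higher in K1-ER, against 17.1% of all genes, and 1 in the mutant, against 7.48%. The 2 were *Tk1* and *Rrm2*, a subunit of ribonucleotide reductase, at 0.87 ± 0.22 (adjusted p = 0.00771). The 1 was *Dut*, the dUTPase, at 0.71 ± 0.18 (adjusted p = 0.0199). *Dut* stood at -0.28 ± 0.22 in K1-ER and *Rrm2* at -0.26 ± 0.21 in the mutant. *Rrm2* and *Dut* were named after their values were seen.

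None of the other lists had a gene past the minimum of 1. In the 13 helicase activation genes, which convert the loaded ring into a running helicase, *Recql4* was highest at 1.01 ± 0.24 in K1-ER and *Dbf4*, the activating subunit of the CDC7 kinase, lowest at -0.62 ± 0.21, and both passed with no minimum (adjusted p = 0.00505 and 0.0369). Of the 25 replication fork genes 5 were higher and 3 lower in K1-ER with no minimum, which is close to the 17.1% and 12.8% of all genes. They ran from *Pole3* at 1.69 ± 0.29 to *Rpa3* at -1.44 ± 0.49, and their median was 0.02. In the mutant *Clspn*, claspin, was the list's called gene, at 1.02 ± 0.17 (adjusted p = 0.000696 with no minimum), and was named after its value was seen. Of the 4 other MCM family and MCM binding genes *Mcm9* was highest at 0.69 ± 0.30 (adjusted p = 0.0985), which did not pass, and *Mcm8* lowest at -0.87 ± 0.24 (adjusted p = 0.0137). The 12 mitosis genes had a median of -0.08 in K1-ER and ran from *Bub1* at -0.96 ± 0.24 (adjusted p = 0.007) to *Cdk1* at 0.31 ± 0.24 (adjusted p = 0.359).

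**Figure D4:**
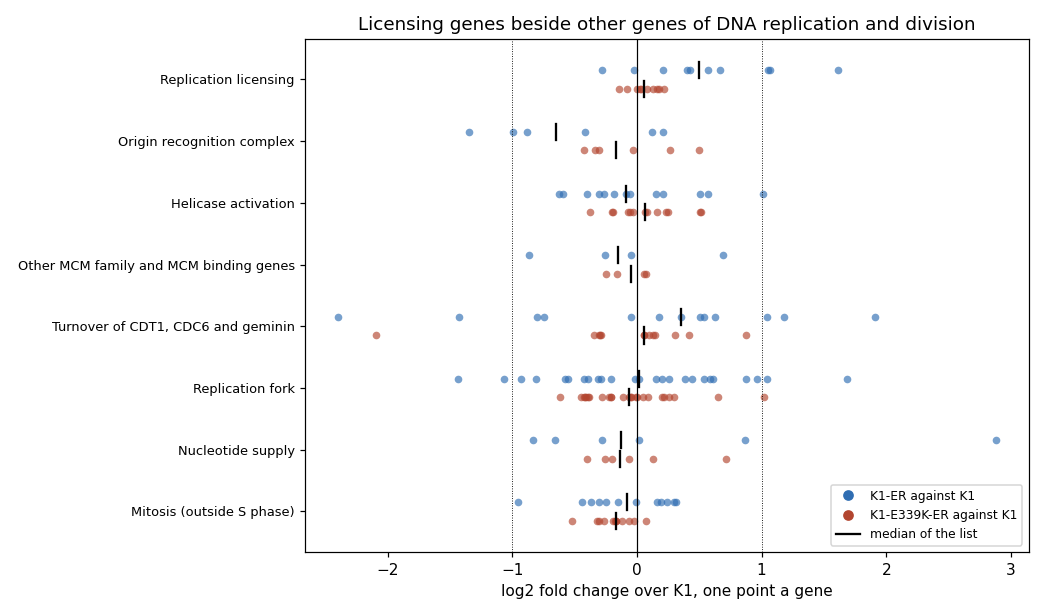
Log2 fold change over K1 of each listed gene, by list, in K1-ER (blue) and K1-E339K-ER (red), with the list median as a black line and dotted lines at -1 and 1. The licensing genes have a median of 0.49 in K1-ER and 0.06 in K1-E339K-ER, and the origin recognition complex genes -0.65 and -0.17.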

How the data were processed

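The authors aligned reads of an Ion Proton sequencer to mm9, using TMAP and, for RNA, also TopHat2 (2.0.10 in the submitters' processing notes), and compared groups with limma's treat and sites with DiffBind. Versions of these are not given in the sources used here. The deposited gene tables hold log2 values (mean log2 CPM and log2 fold change), the moderated t as a score, and a p-value with its adjustment. The deposited site table holds log2 concentrations, Fold and a p-value with its FDR. The comparison columns were used because the tables hold no other measurement. No counts are held, so the depth of each library is unknown and no value or spread between libraries can be given.

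Rows were paired by Entrez identifier, length and mean expression. The minimum of 1 was read from the values, as smaller log2 fold changes have a t of 0. The degrees of freedom (15.57) and each standard error were solved from t and p with scipy 1.17.1 (Python 3.11.15), which failed for 4 genes in K1-E339K-ER and 3 in K1-ER. Intervals are 95% t intervals. Their median standard error was 0.26 and 0.31 on the log2 scale. Treat was rebuilt with other minimums, and p-values were adjusted over all genes (Benjamini-Hochberg, threshold 0.05). The p-values rest on the spread between libraries of the authors' fit, as moderated by limma, and that fit includes K1-ER libraries that were not analysed here. The labels share replicate numbers, but the tables carry none.

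On simulated data of 11357 genes, standard errors came back within 1% for 98.6% of genes in K1-E339K-ER against K1 and 97.4% in K1-ER against K1. For K1-E339K-ER against K1-ER, also on 11357 genes, the difference test with a minimum of 1 found 33% of genes changed by 2 on the log2 scale and 88% of those changed by 4, and with no minimum 80% and 95%, with 6.42% false among those called.

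The genes and lists were chosen with earlier results of these data known. The rule named all 10 genes, sites closest to them or within 10 kb of a start, *Klf1*, and, per list, genes past the test (minimum 1, at most 5 by p) or else the highest and lowest. Alternatives were other minimums, stricter or Holm-adjusted p-values, an expression filter, other K1 shares, and other windows for sites and motifs.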

Additional observations from a re-analysis of the deposited data

Results flagged for a closer look

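These genes were listed because K1-E339K-ER and K1-ER differed in their change over K1. This was by a test of the difference itself, rebuilt from limma treat values with adjustment over all genes. With no minimum change, the mutant minus wild type value was -1.53 for *Mcm7*, -0.92 for *Cdt1*, -0.90 for *Cdc6*, -0.67 for *Mcm3* and -0.65 for *Gmnn*. With a minimum of 1 it was -3.08 for *Tk1*, -2.21 for *Cdc20* and 1.84 for *Orc4*. With the share of the variance carried by the K1 libraries at 0.5, 0.25 and none, the adjusted p with no minimum was 0.000726, 0.00545 and 0.0191 for *Mcm7*, 0.00871, 0.0375 and 0.0886 for *Cdc6*, 0.0204, 0.0699 and 0.142 for *Cdt1*, 0.0244, 0.0795 and 0.157 for *Mcm3*, and 0.0334, 0.0992 and 0.185 for *Gmnn*.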

How the results depend on the processing

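No paired analysis was possible because the tables carry no value for a library, and leaving out single replicates was not possible for the same reason. For K1-ER the licensing genes called were 0 with a minimum of 1, 1 with 0.5 and 4 with 0. The 4 without a minimum became 2 at an adjusted p under 0.01 and 0 with Holm's adjustment. For the difference, 0 were called with a minimum of 1 and 5 with 0, and the 5 became 2 at an adjusted p under 0.01, 0 with Holm's adjustment, 2 with the K1 libraries carrying 0.25 of the variance and 1 with none. For K1-E339K-ER the count was 0 in every alternative. The 1 pathway gene called in K1-E339K-ER became 3 with a minimum of 0, 0 at an adjusted p under 0.01 and 0 with Holm's adjustment, and the 2 in K1-ER became 23 with a minimum of 0, 5 with 0.5 and 1 with Holm's adjustment. Of the 2 sites whose closest start was that of *Cdt1* or *Gmnn*, neither held a pyrimidine form within 50 bp of the midpoint. The *Cdt1* site of these 2 did when the whole site was read. The site beyond the end of *Cdt1*, listed under *Aprt*, is not among them. A lower minimum or a stricter adjustment changes counts by construction. The other alternatives left their counts within 1.5 times and the medians within 1 standard error. The alternatives for the tests without a minimum, the K1 shares there and the E2F starts were chosen after seeing the data. The limits are the missing values per library, the K1-ER libraries that were not analysed here, and the single ChIP library of the mutant, because of which no spread between mutant replicates enters the FDR of a site.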
